A study of Homo sapiens with 2 samples.

Results

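The genes described here code for proteins that decide which exons of a pre-mRNA are kept: the heterogeneous nuclear ribonucleoproteins (hnRNPs), the serine/arginine-rich (SR) proteins and a few partners. They were taken by symbol, as every gene named HNRNP with any ending or SRSF with a number, plus TRA2A, TRA2B, PTBP1, PTBP2, RBFOX2, SON, SRRM1 and SRRM2, without pseudogenes or antisense genes. Of 33538 genes in the count tables, 47 symbols matched and 46 were kept as members, 26 of them hnRNP genes, 12 SRSF genes and 8 others. HNRNPA1P48 was left out because its symbol is that of a pseudogene, although GENCODE 44 lists this locus as the protein-coding HNRNPA1L3.

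The data are single-cell transcriptomes of 2 established Ewing sarcoma cell lines, CHLA9 and TC71, made with a droplet kit that tags the 3′ end of each captured mRNA with a unique molecular identifier (UMI). CHLA9 cells were grown in Iscove's medium with 20% fetal bovine serum and an insulin, transferrin and selenium supplement, and TC71 cells in RPMI-1640 with 10% serum, so line and medium cannot be told apart. CHLA9 reads came from the NovaSeq as well as from the HiSeq, and TC71 reads from the HiSeq alone. Line and sequencing run thus cannot be told apart either. Each line has 1 library, neither line was treated, and the third line of the design was not analysed here.

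Of 5077 barcodes of CHLA9, 4524 were kept as cells, and of 8468 barcodes of TC71, 1729. Their medians were 34656 and 33370 UMIs per cell, 6532 and 6047 genes, and 7.59% and 9.05% mitochondrial UMIs, with 174975302 and 58355173 UMIs in all. The libraries shared 16 barcodes, 3 of them among the kept cells. Ewing sarcoma markers reached 10 CPM (UMIs of a gene scaled to a total of 1000000) in at least 1 line for 9 of 10 genes, GLI1 being the exception. CD99, the surface protein used in diagnosis, stood at 1141 CPM in CHLA9 and 402 CPM in TC71. Of the markers of blood cells, epithelium, endothelium, fibroblasts and hepatocytes, CD79A and DCN alone reached 10 CPM, with 10.1 and 10.1 CPM for CD79A and 13.6 and 2.86 CPM for DCN in CHLA9 and TC71. PTPRC, the defining blood cell marker, was at 0.0514 and 0.0857 CPM, and the 4 epithelial markers summed to 0.143 and 1.27 CPM. As cells of 1 library are not replicates, no test between lines or phases was made, and the 95% intervals given cover counting error only.

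SR proteins bind exonic enhancers through an RNA recognition motif and recruit the splicing machinery through a tail rich in arginine and serine, whereas many hnRNPs bind silencers and hold exons out of the mRNA. Both groups are abundant nuclear proteins, and many members limit their own level by splicing a premature stop into their mRNA. PTBP1 and its paralog PTBP2 bind pyrimidine-rich tracts. PTBP1 is widespread and lowers PTBP2 outside neurons by making its mRNA skip an exon. RBFOX2 binds a short GCAUG element beside regulated exons, and SON and SRRM2 build the nuclear speckles where splicing factors are stored. Ewing sarcoma is driven by fusions of EWSR1, itself an RNA-binding protein gene, to an ETS factor gene such as FLI1. A 3′ tag does not show which isoform of a member was made.

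The start regions of 5 members that carry the differences below are shown first. Of the 46 members, 41 had a promoter entry in RefSeq (GRCh38.p14), and HNRNPA1, HNRNPCL3, RBFOX2, SRSF2 and TRA2A did not. Windows are the 250 bases before the RefSeq start farthest upstream, read 5′ to 3′ on the gene's strand. In 27 members, PTBP1 among them, more than 30 of these bases lie in an exon annotated by GENCODE 44, and those are not printed. SRSF8 had the largest difference between the lines, HNRNPH1 and SRSF4 were higher in CHLA9, PTBP2 belongs to the PTB pair, and HNRNPUL2 was highest in G2M cells. Capitals mark a CCAAT box (CCAAT or ATTGG) or an ETS core (CCGGAAG or CTTCCGG).
SRSF8, chr11:95066627-95066876, plus strand: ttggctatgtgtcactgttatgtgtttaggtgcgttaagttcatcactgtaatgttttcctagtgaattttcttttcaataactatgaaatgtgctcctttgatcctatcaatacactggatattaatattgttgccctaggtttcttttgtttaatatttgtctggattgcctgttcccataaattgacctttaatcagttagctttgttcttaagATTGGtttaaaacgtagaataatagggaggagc
HNRNPH1, chr5:179634785-179635034, minus strand: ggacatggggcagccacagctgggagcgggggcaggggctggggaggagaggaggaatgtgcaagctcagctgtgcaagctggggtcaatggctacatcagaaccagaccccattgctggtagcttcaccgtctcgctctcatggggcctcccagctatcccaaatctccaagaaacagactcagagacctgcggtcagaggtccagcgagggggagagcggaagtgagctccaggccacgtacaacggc
SRSF4, chr1:29181901-29182150, minus strand: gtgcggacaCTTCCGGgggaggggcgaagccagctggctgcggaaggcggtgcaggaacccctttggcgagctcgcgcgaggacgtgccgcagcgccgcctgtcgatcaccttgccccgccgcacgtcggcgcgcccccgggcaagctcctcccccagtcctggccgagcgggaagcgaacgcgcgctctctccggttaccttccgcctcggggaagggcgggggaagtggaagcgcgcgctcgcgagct
PTBP2, chr1:96722388-96722637, plus strand: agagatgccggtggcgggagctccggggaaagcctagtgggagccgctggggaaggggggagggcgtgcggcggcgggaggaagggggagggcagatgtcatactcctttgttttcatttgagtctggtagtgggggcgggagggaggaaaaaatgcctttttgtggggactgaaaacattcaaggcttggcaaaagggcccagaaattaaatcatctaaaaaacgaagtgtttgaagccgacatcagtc
HNRNPUL2, chr11:62727458-62727707, minus strand: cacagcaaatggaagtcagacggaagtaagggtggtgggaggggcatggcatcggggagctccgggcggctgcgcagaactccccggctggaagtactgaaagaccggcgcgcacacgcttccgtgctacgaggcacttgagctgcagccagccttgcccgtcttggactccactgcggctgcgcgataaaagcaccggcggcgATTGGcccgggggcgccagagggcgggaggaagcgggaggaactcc

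Members' windows were rich in CpG. The median window held 25 CpG dinucleotides and 64.8% G and C over the 41 members, against 10 CpGs and 57.6% over all 27305 windows of the same length. SRSF8 had the fewest, with 2 CpGs and 33.6% G and C, beside the retrocopies HNRNPCL4 with 3 CpGs and 38.8% and HNRNPCL2 with 6 CpGs and 39.6%. Not all retrocopies were low, as HNRNPA1L2 had 21 CpGs and 63.2%. HNRNPH1 had 8 CpGs. The most CpGs among the windows shown were 36, in SRSF4. A CCAAT box on either strand was found in 22 of the 41 windows (53.7%) and in 33.03% of all windows. The ETS core CCGGAAG was found in 5 members (12.2%) and in 8.78% of all windows, and GGAAGGAA, a run of ETS core repeats, in 1 member (2.44%) against 2.99%. TATAAA was in 4 members (9.76%) against 11.2%, and TTTGGCGC, an E2F-type site, in 0 of 41 against 0.542%. The motifs were searched on both strands, and CCGGAAG and GGAAGGAA can share letters. These are matches of letters in a window and not sites of binding.

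To set out the level of each member, UMIs were summed over the kept cells of a line and given as CPM. Each captured mRNA end counts once whatever its length, but genes differ in how well their 3′ ends are captured, which limits comparisons between genes. Of the 46 members, 40 reached 10 CPM in at least 1 line. Together the members held 16463 CPM in CHLA9 (1.65% of its UMIs) and 12738 CPM in TC71 (1.27%). The median member stood at 343 CPM in CHLA9 and 240 CPM in TC71, where the median of all 9258 genes at 10 CPM or more in a line was 35.4 and 29.9 CPM.

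The hnRNP core proteins led both lines. HNRNPA2B1, which binds and packages nascent pre-mRNA, was first, with 1326 CPM in CHLA9 and 1203 CPM in TC71. In CHLA9 it was followed by HNRNPU, a nuclear matrix protein that also holds chromatin, at 1278 CPM. HNRNPA1, an exon silencer, was at 1141 CPM, HNRNPC, which binds uridine tracts, at 997 CPM, and HNRNPD, a regulator of mRNA decay, at 722 CPM. In TC71 the order after HNRNPA2B1 was HNRNPC at 871 CPM, HNRNPA1 at 844 CPM, HNRNPU at 815 CPM and HNRNPA3 at 755 CPM. The 5 highest members held 33.2% of the members' UMIs in CHLA9 and 35.2% in TC71. Of the 39 pairs of neighbours in the order of levels, the intervals of 6 overlapped in CHLA9 and of 9 in TC71.

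Among the SR proteins, SRSF3, the smallest of them, was highest in both lines, with 713 CPM in CHLA9 and 621 CPM in TC71. SRSF7, its close relative, followed at 588 and 606 CPM. SRSF12 was far lower, at 18.6 and 23.5 CPM. The 6 members under 10 CPM in both lines are retrocopies and a readthrough gene. HNRNPA1L2, a copy of HNRNPA1, had 811 UMIs in CHLA9 and 215 UMIs in TC71. The HNRNPC copies HNRNPCL1, HNRNPCL2, HNRNPCL3 and HNRNPCL4 had 21, 9, 2 and 3 UMIs in CHLA9 and 5, 5, 1 and 1 UMIs in TC71, and the readthrough HNRNPUL2-BSCL2 had 12 and 5. Reads of such copies can be shared with the parent gene, so these counts, and those of HNRNPA1 and HNRNPC, are uncertain.

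**Figure D1:**
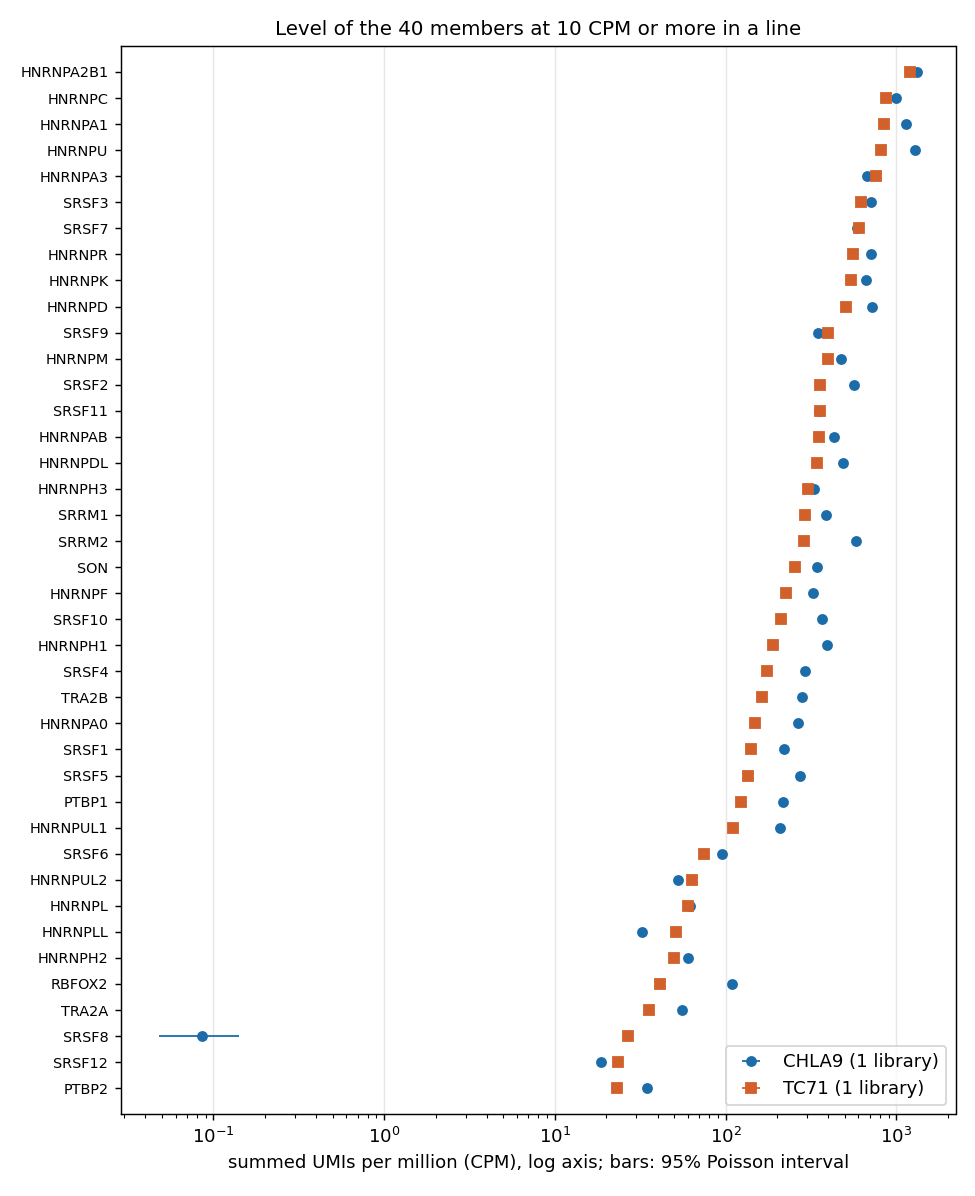
Level of the 40 members that reached 10 CPM in a line, in CPM on a log axis, for the CHLA9 library (circles) and the TC71 library (squares), with 95% Poisson intervals. Members are ordered by TC71, from PTBP2 at 23.2 CPM to HNRNPA2B1 at 1203 CPM, and the CHLA9 circle of SRSF8 lies alone at 0.0857 CPM.

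Most members were higher in CHLA9 than in TC71, as were most genes. Of the 40 members, 32 had a log2 ratio of CHLA9 over TC71 above 0, where 60.6% of all 9258 genes had. Under median-of-ratios scaling 29 members had, and the share of all genes above 0 was not taken there. Scaled by total UMIs, the median of members was 0.41, where that of all genes was 0.21. The interquartile range was 0.13 to 0.68 for members and -0.32 to 0.73 for all genes. Past 1.5-fold, 14 members (35.0%) were higher in CHLA9, where 31.1% of all genes were. In the other direction 2 members (5.00%) were higher in TC71, where 16.3% of all genes were. The shift of all genes depends on scaling. TMM scaling moves every log2 ratio by -0.11, and the count past 1.5-fold becomes 10 higher in CHLA9 and 2 in TC71, with 26.5% and 19.5% of all genes. Median-of-ratios scaling moves them by -0.16 and leaves 9 and 2, with 24.5% and 21.3% of all genes. Both scalings move members and other genes by the same amount, so under them the distance between their medians stays at 0.20. That distance depends on the genes compared, and the median member was higher than the median gene. At 50 CPM or more, scaled by total UMIs, the median was 0.41 for 37 members and 0.10 for all genes. There 14 members were higher in CHLA9 and 1 in TC71, where 26.1% and 17.6% of all genes were.

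Cytosolic ribosomal protein genes took 16.7% of the UMIs in CHLA9 and 19.4% in TC71. With these and mitochondrial genes left out of the total, a scaling chosen after seeing the data, 10 members were higher in CHLA9 and 2 in TC71. Of all genes, 27.5% and 18.8% were. The median log2 ratio was 0.33 for members and 0.12 for all genes. The part of ribosomal protein and mitochondrial genes in the difference was not tested further.

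RBFOX2 (ENSG00000100320, chr22:35738736-36028824 on the minus strand, GRCh38), whose protein switches exons in muscle, nerve and mesenchymal cells, had the highest ratio toward CHLA9. It stood at 109 CPM (95% Poisson interval 108 to 111) in CHLA9 and 41.3 CPM (39.6 to 43.0) in TC71, a log2 ratio of 1.40 (1.34 to 1.47). After thinning to 10000 UMIs, an RBFOX2 UMI was found in 65.0% of the cells in CHLA9 and in 33.9% in TC71. Neither library holds a cell type known to lack these mRNAs, so no background share can be set beside such values.

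Among the hnRNPs, HNRNPH1, which binds runs of G and is known to act on EWSR1 exons in the fusion mRNA, was at 390 CPM in CHLA9 and 189 CPM in TC71, a log2 ratio of 1.04 (1.02 to 1.07). HNRNPUL1, a partner of DNA repair proteins, was at 209 and 111 CPM, a log2 ratio of 0.92. HNRNPA0 had 266 and 148 CPM, a log2 ratio of 0.85. HNRNPU was higher in CHLA9 by 0.65. The rest of the A/B and D family was closer: HNRNPD at 0.52, HNRNPDL at 0.50, HNRNPA1 at 0.43, HNRNPAB at 0.29 and HNRNPA2B1 at 0.14, with HNRNPA3 on the other side at -0.16.

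The SR proteins were spread most widely. SRSF5 was higher in CHLA9 by a log2 ratio of 1.01 (273 against 136 CPM), SRSF10, which represses splicing when dephosphorylated, by 0.80, SRSF4 by 0.73, SRSF2 by 0.67 and SRSF1 by 0.66. SRSF3, SRSF7, SRSF11 and SRSF9 had ratios of 0.20, -0.04, -0.01 and -0.21. Of the SR-like TRA2 proteins, which bind GA-rich enhancers, TRA2B was higher in CHLA9 by 0.78 (280 against 164 CPM) and TRA2A by 0.63 (55.5 against 35.8 CPM). Under TMM, HNRNPU, SRSF1, SRSF2 and TRA2A no longer passed 1.5-fold, and under median-of-ratios scaling neither did SRSF4.

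The speckle proteins differed among themselves. SRRM2 was at 577 CPM in CHLA9 and 287 CPM in TC71, a log2 ratio of 1.01 (0.99 to 1.03). SON, the other speckle scaffold, was at 341 and 256 CPM, a ratio of 0.41. SRRM1, a coactivator that bridges SR proteins, was at 386 and 291 CPM, also 0.41. The intervals of SON and SRRM1 overlapped each other and neither reached that of SRRM2.

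**Figure D2:**
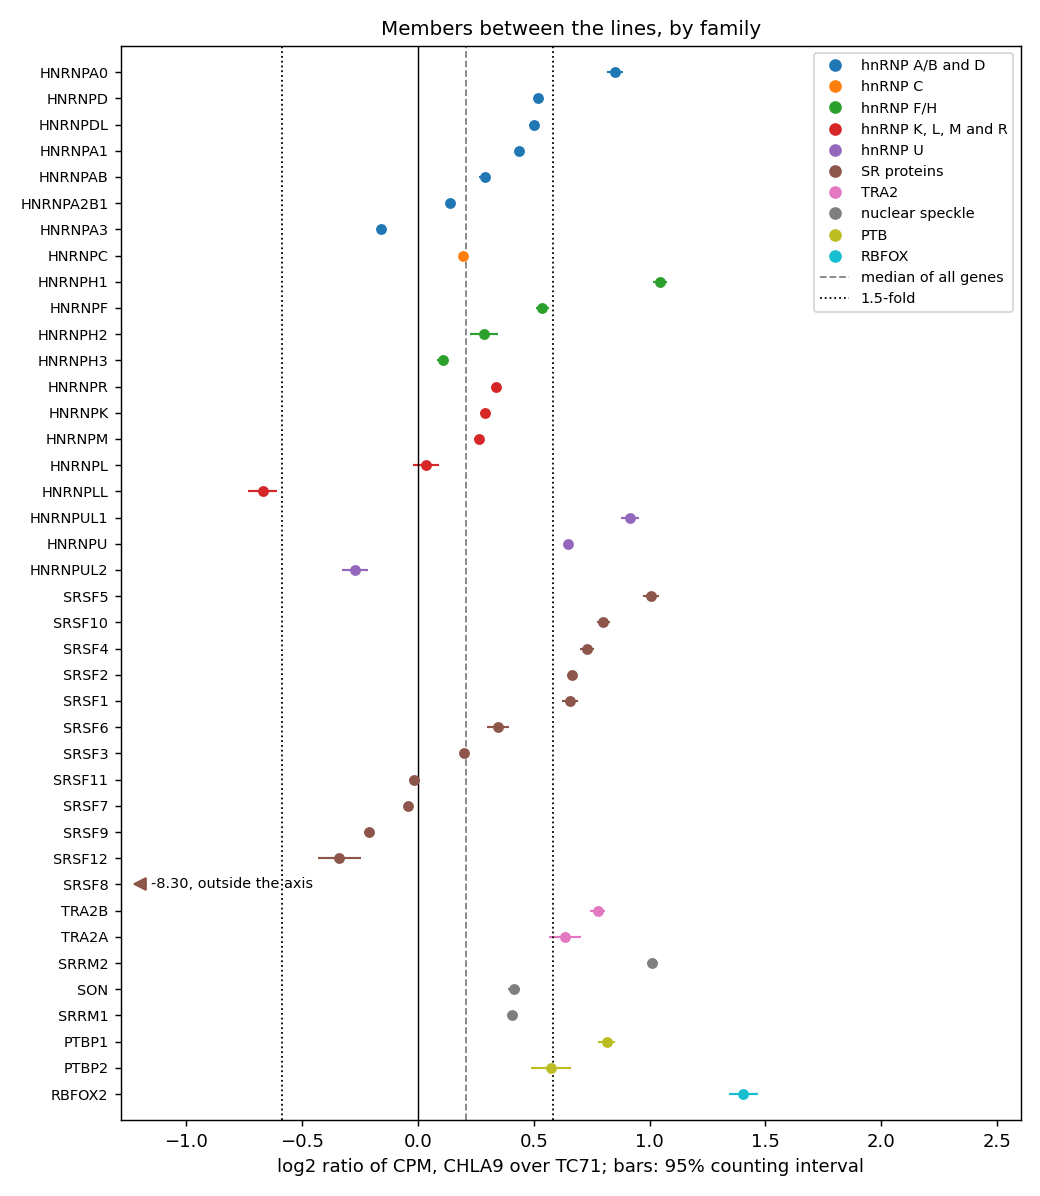
Log2 ratio of CPM in CHLA9 over TC71 for the 40 members, grouped and coloured by family, with 95% counting intervals. The dashed line is the median of all genes at 0.21, the dotted lines mark 1.5-fold, and SRSF8 at -8.30 lies outside the axis. Most points lie right of 0, with RBFOX2 at 1.40 the farthest.

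Only SRSF8 and HNRNPLL were past 1.5-fold toward TC71 among the 40 members. HNRNPLL, known for exon silencing of CD45 in T cells, was at 32.3 CPM (31.5 to 33.2) in CHLA9 and 51.4 CPM (49.6 to 53.3) in TC71, a log2 ratio of -0.67 (-0.73 to -0.61). Its relative HNRNPL stood at 61.5 and 59.9 CPM, with an interval of the ratio from -0.02 to 0.09.

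SRSF8 (ENSG00000263465, chr11:95066919-95071225 on the plus strand, GRCh38), an expressed retrocopy of SRSF2, was close to absent in CHLA9. The CHLA9 library held 15 SRSF8 UMIs, in 15 of 4524 cells with 1 each, or 0.0857 CPM (0.0480 to 0.141). The TC71 library held 1573, in 951 of 1729 cells (55.0%) with up to 8 per cell, or 27.0 CPM (25.6 to 28.3). This is a 314-fold difference (190 to 563), or a log2 ratio of -8.30. The level in TC71 was even across phases, at 28.0 CPM in G1, 26.1 CPM in S and 27.6 CPM in G2M cells. The parent gene SRSF2 was abundant in both lines, at 566 and 356 CPM, and reads may be shared between the copies.

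The genes next to SRSF8 were then looked at, after its value was seen. ENDOD1, whose start lies 22.9 kb downstream, had 2 UMIs in CHLA9 and 216 in TC71, a log2 ratio of -8.34. SESN3, a stress-responsive regulator of growth signalling whose start lies 98.6 kb downstream, had 17 UMIs in CHLA9 and 814 in TC71, a log2 ratio of -7.17. On the upstream side, KDM4D at -93.2 kb, CWC15, itself a spliceosome protein gene, at -104 kb and AMOTL1 at -360 kb had log2 ratios of 0.16, -0.30 and 0.19. On the far side FAM76B at 702 kb and CEP57 at 723 kb had ratios of 0.11 and 0.13. KDM4E and KDM4F, between KDM4D and SRSF8, had at most 1 UMI in either line. Farther out, MRE11 (-0.53) and MTMR2 (-0.68) were lower in CHLA9 and PANX1 (2.36, at 14.9 against 2.91 CPM) and PIWIL4 (1.31) were higher. Thus 3 neighbouring genes were near 0 in CHLA9 and far higher in TC71, and the expressed genes nearest to them on both sides were present in both lines. UMIs do not show copy number, and the cause was not tested.

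**Figure D3:**
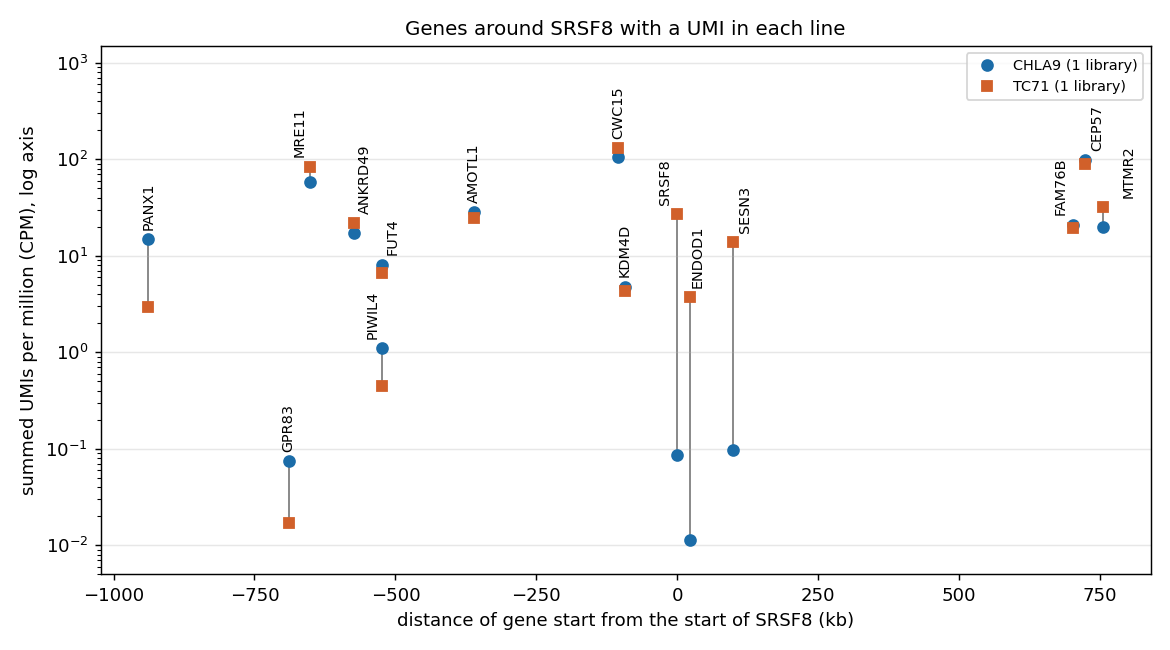
Levels of the 15 genes with a UMI in each line around SRSF8, as CPM on a log axis against the distance of the gene start from that of SRSF8 in kb, for CHLA9 (circles) and TC71 (squares). SRSF8, ENDOD1 and SESN3 fall to 0.0857, 0.0114 and 0.0972 CPM in CHLA9, and CWC15 and CEP57 lie close together in both lines.

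To compare the paralogs PTBP1 and PTBP2, the ratio of their UMIs was taken in each line. PTBP1 (ENSG00000011304, chr19:797075-812327, plus strand) was the major form in both. It stood at 217 CPM (214 to 219) in CHLA9 and 123 CPM (120 to 126) in TC71. PTBP2 (ENSG00000117569, chr1:96721665-96823738, plus strand), the form of developing neurons, stood at 34.5 CPM (33.6 to 35.4) and 23.2 CPM (21.9 to 24.4). The ratio of PTBP2 over PTBP1 was 0.159 (0.155 to 0.164) in CHLA9 and 0.188 (0.177 to 0.199) in TC71. The intervals do not overlap, but both genes were higher in CHLA9, with log2 ratios of 0.81 and 0.58.

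The ratio differed by phase in CHLA9. It was 0.201 (0.189 to 0.213) in G1 cells, 0.165 (0.158 to 0.172) in S cells and 0.139 (0.133 to 0.145) in G2M cells, with no overlap of the intervals. In TC71 it was 0.201 (0.166 to 0.242), 0.196 (0.180 to 0.213) and 0.176 (0.161 to 0.193), and all 3 intervals overlapped. Within cells, PTBP2 varied little with PTBP1. In CHLA9 cells thinned to 10000 UMIs, the share with a PTBP2 UMI was 29.8% among 547 cells with no PTBP1 UMI and 29.2% among 778 cells with 4 or more. In TC71 it was 18.8% (15.4 to 22.5) of 490 cells with none and 26.3% (17.0 to 37.3) of 80 cells with 4 or more. Their Spearman rho was 0.0117 in CHLA9 (4510 cells) and 0.0402 in TC71 (1670 cells). With a PTBP2 UMI in 29.8% and 21.2% of the thinned cells, a weak relation was not detectable at this depth.

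Cell cycle phases were called from the S and G2M gene lists of Seurat, which hold none of the members. In CHLA9, 1015 cells were in G1, 1743 in S and 1766 in G2M, and in TC71, 226, 834 and 669. Phase groups differed in depth, with medians of 29196, 35064 and 40896 UMIs in CHLA9 and 29048, 33035 and 37014 UMIs in TC71. The summed members took 16585, 16695 and 16214 CPM of G1, S and G2M cells in CHLA9 and 11765, 12992 and 12708 CPM in TC71, so the list as a whole differed little in CHLA9 and was lowest in G1 in TC71. The TC71 G1 group is unsure. With all genes used for scoring it held 614 cells instead of 226.

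G2M cells over S cells gave the pattern most alike in the lines. Of 39 members at 10 CPM or more in both, 31 had the same sign, 24 of them with both intervals off 0, and Spearman's rho between the lines was 0.743 across members, which are not replicates. For S over G1 the same rho was 0.0538 and for G2M over G1 0.474. The median log2 ratio of G2M over S was -0.04 in CHLA9 (all genes 0.02) and -0.03 in TC71 (all genes 0.04). Above 0 were 19 of 39 members in CHLA9 (all genes 53.3%) and 18 of 40 in TC71 (all genes 58.8%). For counts of the same sign or of intervals off 0, here and below, the share of all genes was not taken. Nor was rho between the lines taken over all genes, so the likeness may not be particular to the members. Intervals are narrower for genes with more UMIs, and the median member had more UMIs than the median gene. The intervals leave out spread among cells beyond counting, so a small log2 ratio with its interval off 0 is not firm.

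Of 11 SRSF genes, 6 were lower in G2M than in S cells in both lines beyond counting error, 1 was higher (SRSF5, at 0.06 and 0.20), and 3 had opposite signs (SRSF3, SRSF9 and SRSF11). No share of all genes was taken for these counts. SRSF2, which activates exons and also aids transcription elongation, had 547 CPM in G1, 692 CPM in S and 466 CPM in G2M cells in CHLA9. In TC71 it had 368, 383 and 324 CPM. It was lowest in G2M in both lines, with log2 ratios of G2M over S of -0.57 (-0.59 to -0.55) and -0.24 (-0.28 to -0.20). SRSF1, the founding SR protein, was at 245, 245 and 190 CPM in CHLA9 and 131, 150 and 131 CPM in TC71, ratios of -0.37 and -0.20. SRRM1 had ratios of -0.31 and -0.24, SRSF10 of -0.29 and -0.14, SRSF7 of -0.27 and -0.18 and SRSF12 of -0.33 and -0.20. The hnRNP with the lowest ratio in CHLA9 was HNRNPF, a binder of G runs, with -0.34 there and -0.13 in TC71.

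The hnRNPs were divided, and here too no share of all genes was taken for the counts. Of 20, 6 were higher in G2M than in S cells in both lines beyond counting error (HNRNPA0, HNRNPA3, HNRNPDL, HNRNPLL, HNRNPUL1 and HNRNPUL2), 6 were lower, and 4 had opposite signs (HNRNPD, HNRNPH1, HNRNPH3 and HNRNPK). The lower ones were HNRNPF, HNRNPC (-0.19 and -0.13), HNRNPR (-0.15 and -0.12), HNRNPAB (-0.14 and -0.10), HNRNPU (-0.09 and -0.10) and HNRNPM (-0.04 and -0.13). HNRNPUL2, a relative of HNRNPU, had 43.6 CPM in G1, 46.2 CPM in S and 61.4 CPM in G2M cells in CHLA9. In TC71 it had 47.9, 60.4 and 70.6 CPM. Its log2 ratios of G2M over S were 0.41 (0.35 to 0.48) and 0.22 (0.13 to 0.32). HNRNPDL, whose mRNA carries known autoregulated exons, had 441, 435 and 552 CPM in CHLA9 and 330, 326 and 368 CPM in TC71, ratios of 0.34 and 0.17. HNRNPLL had ratios of 0.21 and 0.17, HNRNPUL1 of 0.14 and 0.23, RBFOX2 of 0.10 and 0.22 and SON of 0.09 and 0.17. All of these intervals lay above 0.

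Few members passed a log2 ratio of 0.32 between phases in either direction, the limit used here. In CHLA9, 2 of 39 members were higher in G2M than in S (HNRNPUL2 and HNRNPDL), or 5.13%, where 9.79% of 8621 genes were. The 4 members lower in G2M (SRSF2, SRSF1, HNRNPF and SRSF12) made 10.3%, where 7.84% of all genes were. In TC71, 0 of 40 members passed in either direction, where 11.8% and 2.86% of 8153 genes did.

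Against G1, 2 members of CHLA9 were higher in G2M past this limit, HNRNPUL2 at 0.50 and HNRNPDL at 0.323, with 13.9% of all genes. SRSF1 at -0.37 and PTBP2 at -0.35 were the 2 lower, with 5.53% of all genes. In TC71, HNRNPUL2 at 0.56, HNRNPUL1 at 0.50 and RBFOX2 at 0.40 were higher (3 of 40, or 7.5%, against 22.1%) and 0 were lower (2.75%). For S over G1 in CHLA9, SRRM1 at 0.42, HNRNPF at 0.42, SRSF10 at 0.36 and SRSF2 at 0.34 were higher, with 12.4% of all genes, and HNRNPH3 at -0.45 was lower, with 5.12%. In TC71, HNRNPU at 0.38 and HNRNPUL2 at 0.33 were higher, with 9.42% of all genes, and 0 members were lower (2.38%).

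**Figure D4:**
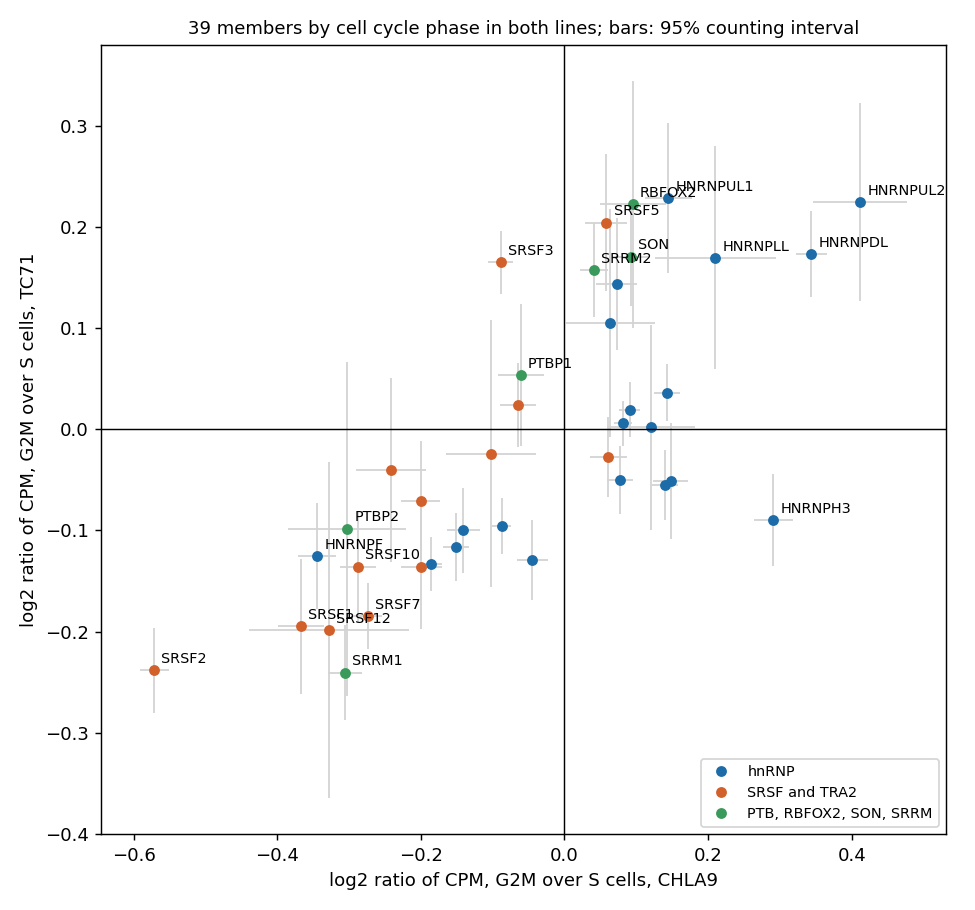
Log2 ratio of CPM in G2M over S cells for 39 members, with CHLA9 on the horizontal and TC71 on the vertical axis and bars for 95% counting intervals. Members such as SRSF2 (-0.57 and -0.24) lie in the lower left, others such as HNRNPUL2 (0.41 and 0.22) in the upper right, and HNRNPH3 (0.29 and -0.09) and SRSF3 (-0.09 and 0.17) lie off the diagonal.

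To ask whether members vary together from cell to cell, Spearman's rho was taken between the 33 members with at least 50 CPM in both lines, across cells thinned to 10000 UMIs. Cells of 1 library share its preparation, and rho in sparse counts is small, so the values are a description. The median over 528 pairs was 0.0217 in CHLA9 and 0.0377 in TC71, where the median over all pairs of 2681 genes at that level was 0.00132 and 0.00132. Among member pairs, 74.4% and 84.8% were above 0, where 52.5% and 51.6% of pairs of all 2681 genes were. Higher genes give higher rho. At 300 CPM or more, a limit chosen after seeing the data, the median over 17 members was 0.0457 and 0.0561, where that over 372 genes was 0.0113 and 0.0111.

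A core of hnRNPs carried the highest values. HNRNPU with HNRNPA2B1 gave 0.366 for CHLA9 and 0.368 for TC71, the highest of all pairs by the mean of the lines. HNRNPU with HNRNPA3 gave 0.341 and 0.324, and HNRNPA2B1 with HNRNPA3 0.302 and 0.307. HNRNPU with HNRNPD gave 0.274 and 0.260, and with HNRNPR 0.258 and 0.229. The first pair lay between 0.295 and 0.396 within each phase of each line. Thinned to 5000 UMIs its rho was 0.222 and 0.240, and thinned to 5000 UMIs without ribosomal protein and mitochondrial genes 0.257 and 0.237. The genes left out took 16.7% and 7.61% of the UMIs in CHLA9 and 19.4% and 9.12% in TC71. Without them, 5000 UMIs hold more of the members, and rho was higher at more UMIs. These values are thus not at a like depth and do not show what leaving the genes out did.

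By class, pairs of hnRNPs had a median of 0.0428 in CHLA9 and 0.0697 in TC71, pairs of SRSF and TRA2 genes 0.0262 and 0.0255, and mixed pairs 0.00902 and 0.0297. The classes were not matched for level, and higher genes give higher rho. SRSF2 with SRSF7 gave 0.135 and 0.166, SRSF3 with SRSF7 0.139 and 0.109, and SRSF2 with SRSF3 0.112 and 0.102. These 3 pairs were picked after the plot of pair values was seen. SRSF2 with the hnRNPs HNRNPA1 and HNRNPA3 was below 0 in both lines, at -0.0453 and -0.0374 and at -0.0421 and -0.0343. Across pairs, rho in one line followed rho in the other with a Spearman value of 0.528, and 347 pairs were above 0 in both.

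Against the sum of the other members, HNRNPU had the highest rho, 0.476 in CHLA9 and 0.524 in TC71. HNRNPA2B1 (0.364 and 0.399), HNRNPA3 (0.325 and 0.373), HNRNPD (0.270 and 0.337) and HNRNPR (0.268 and 0.284) followed. At the other end were SRSF9 (-0.00905 and 0.0410), HNRNPUL1 (0.0268 and 0.0564), SRSF2 (0.0603 and 0.0291), SRSF3 (0.0612 and 0.0477) and HNRNPUL2 (0.0143 and 0.118). The members in sum took a median of 165 of 10000 UMIs in CHLA9 cells and 126 in TC71 cells. The 5th and 95th percentiles were 129 and 206 in CHLA9 and 93 and 167 in TC71. The variance over the mean was 3.24 and 4.06, where counting alone gives 1.

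Other features of the cells moved with this sum. Its rho with the UMIs of ribosomal protein genes was -0.424 in CHLA9 and -0.566 in TC71, and with the mitochondrial percent -0.325 and -0.126. With MALAT1, a nuclear noncoding RNA, it was 0.0544 and 0.360. HNRNPU alone had -0.385 and -0.476 with ribosomal protein UMIs and 0.182 and 0.361 with MALAT1, while HNRNPA1 had 0.00830 and -0.0517 with ribosomal protein UMIs. Thinned to 5000 UMIs, the median pair rho was 0.0141 and 0.0219. At 5000 UMIs without ribosomal protein and mitochondrial genes, which hold more member UMIs, it was 0.0105 and 0.0195, where all 2589 genes had 0.000291 and 3.7e-05. The part of these features in the co-variation was not tested further.

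**Figure D5:**
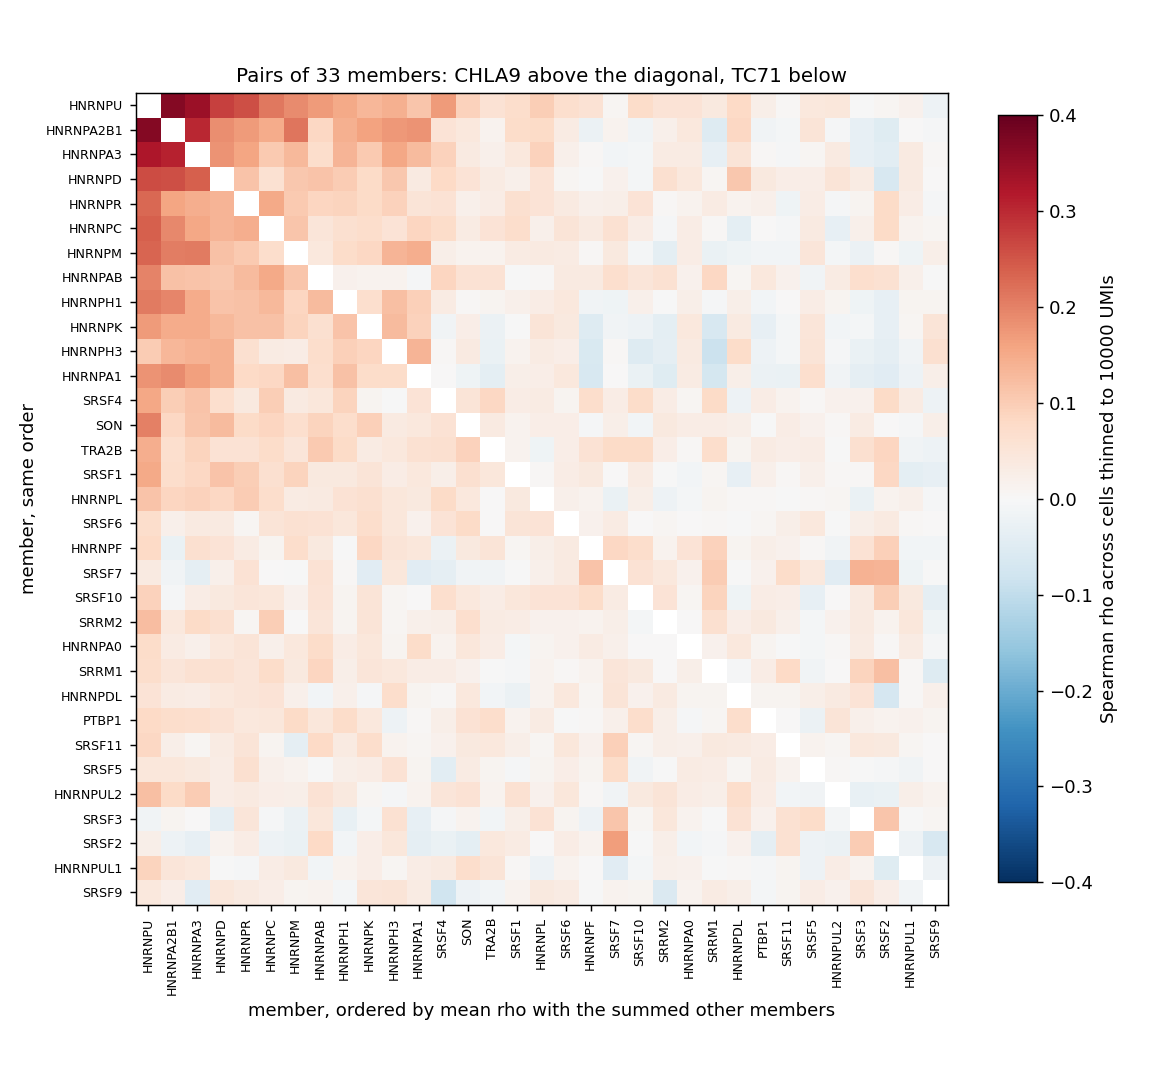
Spearman's rho for pairs of the 33 members across cells thinned to 10000 UMIs, with CHLA9 above and TC71 below the diagonal and members ordered by their mean rho with the summed others. The darkest cells gather around HNRNPU, HNRNPA2B1 and HNRNPA3 in the upper left corner, from 0.302 to 0.368, and SRSF2, SRSF3 and SRSF7 form a paler group.

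The spread of single members across cells was set beside all genes as the squared coefficient of variation in excess of counting. Its median over genes at 50 CPM or more was 0.0512 in CHLA9 and 0.0642 in TC71, and over the members 0.0468 and 0.0666. HNRNPUL2 was above the median of all genes in both, with 0.120 and 0.127, as was HNRNPU, with 0.113 and 0.145. HNRNPUL2 had 0.509 and 0.610 UMIs per thinned cell, and its variance over the mean was 1.06 and 1.08. That of HNRNPU was 2.45 and 2.17. SRSF9 was among the steadiest, with 0.0158 and 0.00752, higher than 11.9% and 7.20% of the genes. HNRNPA0, with 0.00983 and 0.0192, and HNRNPK, with 0.0169 and 0.0195, were steady too.

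Other genes of the splicing pathway were set beside the same shares of all genes, 31.1% higher in CHLA9 and 16.3% higher in TC71. Among the kinases and importers of SR proteins, 10 of 11 listed genes reached 10 CPM, and 4 were higher in CHLA9 past 1.5-fold and 1 in TC71, with a median log2 ratio of 0.36. Under TMM, applied to these lists after their values were seen, the 4 became 1, CLK2. CLK2 (1.03), CLK1 (0.69) and DYRK1A (0.63), nuclear kinases of SR proteins, and SRPK2 (0.60) were on the CHLA9 side. SRPK1, the cytoplasmic kinase that prepares SR proteins for import, was on the other, at 107 CPM in CHLA9 and 179 CPM in TC71, a ratio of -0.75.

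The core spliceosome was divided. Of 43 genes, 8 were higher in CHLA9 (18.6%) and 10 in TC71 (23.3%), with a median of 0.08. EFTUD2 (1.51), SF3A2 (1.40) and PRPF8 (1.13), which code for proteins of the U5 and U2 particles, were on the CHLA9 side. On the TC71 side SF3B5 (-1.43), SNRPG (-1.18) and SNRPF (-1.14), small proteins of the U2 particle and of the Sm ring, were the 3 with the largest ratios. Of 50 other splicing regulators, 30 reached 10 CPM, 10 were higher in CHLA9 (33.3%) and 4 in TC71 (13.3%), with a median of 0.36. ELAVL3, a neuronal RNA-binding protein gene, stood at 21.2 CPM in CHLA9 against 0.223 CPM in TC71, a log2 ratio of 6.57. RALY (1.27) and SRRT (1.18) came next, and MBNL3 (-0.88), QKI (-0.79) and PTBP3 (-0.75), the third PTB paralog, were on the TC71 side.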

How the data were processed

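Single-cell transcriptomes of CHLA9 and TC71, with 1 library each, were analysed. The authors counted UMIs with Cell Ranger 3.1.0 (reference hg38) and deposited them as raw counts per gene and barcode. Whether the counting used strand is not given in the sources used here.

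Barcodes with 5000 UMIs or more, 2000 genes or more and no more than 15% of UMIs from MT- genes were taken as cells, and doublets were not removed. Counts were summed over cells and scaled to CPM, and genes with at least 10 CPM in a line were compared. Poisson, Clopper-Pearson and conditional binomial 95% intervals came from scipy 1.17.1. Differences were counted past 1.5-fold between lines and past 1.25-fold, a log2 ratio of 0.322, between phases. Phases were scored with Seurat 5.3.0 in R 4.3.3 on genes detected in at least 10 cells. For rho, numpy 2.4.6 was used to thin each cell to 10000 UMIs, leaving out 14 CHLA9 and 59 TC71 cells. Tables were handled with pandas 2.3.3, and TMM factors came from edgeR 4.0.16. Coordinates are from GENCODE 44. The steps were tested on simulated data.

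Values are given in full for the PTB, RBFOX2, TRA2 and speckle genes, for the 5 members with the highest level, the largest ratios between lines or phases or the highest and lowest rho with the others, for the 5 pairs with the highest rho, and for the 3 genes of each related list with the largest ratio in each direction. The members and lists were chosen with earlier results of these data known. Protein sequences were not used here.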

Additional observations from a re-analysis of the deposited data

Results flagged for a closer look

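Several members had phase ratios of opposite sign in the lines, each with its counting interval off 0. These differences, given as the log2 ratio in CHLA9 minus that in TC71, were not tested, and chance was not assessed. For G2M over G1 they were -0.34 for HNRNPU (-0.05 and 0.29), -0.32 for HNRNPA2B1 (-0.06 and 0.26), -0.38 for HNRNPM (-0.26 and 0.12), -0.30 for HNRNPC, -0.28 for SRSF5, -0.26 for HNRNPK, -0.25 for HNRNPH1, -0.25 for HNRNPA1 and 0.25 for SRRM1. For S over G1 they were -0.47 for HNRNPM (-0.22 and 0.25), -0.45 for HNRNPH1 (-0.19 and 0.25), -0.40 for HNRNPA2B1, -0.39 for HNRNPK, -0.38 for HNRNPA3, -0.32 for HNRNPA1, -0.25 for HNRNPC, -0.22 for HNRNPR, 0.23 for SRSF3 and 0.23 for SRSF7. Both sets rest on the 226 G1 cells of TC71, whose number moved to 614 when all genes were used for scoring. For G2M over S, which uses no G1 cell, they were 0.38 for HNRNPH3 (0.29 and -0.09), 0.19 for HNRNPD (0.14 and -0.06), 0.13 for HNRNPK (0.08 and -0.05) and -0.25 for SRSF3 (-0.09 and 0.17).

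Data outside the comparisons also held the members' UMIs. In the 5869 TC71 barcodes under 5000 UMIs, which were left out, the summed members stood at 11350 CPM, beside 12738 CPM in the kept cells, a log2 ratio of -0.17. In the 277 such CHLA9 barcodes they stood at 8009 CPM, beside 16463 CPM, a log2 ratio of -1.04. HNRNPA1P48, left out by its symbol, stood at 14.5 CPM in CHLA9 against 21.5 CPM in TC71. These values were listed because their counts lie above 0, a rule that any detected gene meets, so the listing itself shows nothing more.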

How the results depend on the processing

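No ratio past its limit changed sign under the alternatives run. The median log2 ratio of members between lines was 0.30 with TMM and 0.25 with median-of-ratios scaling, where those of all genes were 0.10 and 0.05. Median-of-ratios scaling left 9 members higher in CHLA9, where 24.5% of all genes were. At 50 CPM or more, 1 of 37 members was higher in TC71, where 17.6% of all genes were. The shares of all genes stand in brackets. In CHLA9, 1 member was higher in G2M than in G1 with phases scored on thinned cells (12.9%) or at most 10% mitochondrial UMIs (13.7%). In CHLA9, 1 was lower with cells past 3 median absolute deviations left out (5.97%), at most 10% mitochondrial UMIs (5.70%) or 50 CPM (3.75%). In TC71, 1 member was lower in G2M than in G1 with the updated cell cycle list (3.12%) or without the top 10% of cells by UMIs (2.91%). With at most 10% mitochondrial UMIs, 7 members of TC71 were higher in G2M than in G1 (26.8%) and 6 in S than in G1 (13.2%). The S over G1 count of TC71 was 0 with thinned cells (6.02%). It was 1 with the updated list (9.42%) or the step of 3 deviations (9.40%). The remaining 190 values of this kind stayed within 1.5 times or the set tolerance, as did 325 of 352 single-gene values. The tolerance for rho was 0.1, wide beside the median pair rho, which ran from 0.0105 to 0.0565 in CHLA9 and from 0.0195 to 0.0887 in TC71. The cause of these moves was not tested. Leaving out a replicate was not possible with 1 library per line. No paired analysis was possible because either line is a single library and nothing was tested. Depth limits single cells most: most members gave under 10 UMIs per cell after thinning.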
